A study of Mus musculus with 6 samples.

Results

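The 10 genes described here encode the elastic fibre and the glycoproteins around it: elastin (Eln), the fibrillins Fbn1 and Fbn2, the fibulins Fbln1, Fbln2, Fbln5, Efemp1 (fibulin-3) and Efemp2 (fibulin-4), and the emilins Emilin1 and Emilin2. They were taken by symbol from the deposited table, where each of the 10 had 1 entry among 25683 genes. Poly(A)-selected RNA had been sequenced from cultured mouse cells labelled as a primary line of aortic vascular smooth muscle, 3 libraries carrying a knock-out of Nt5e (libraries 1, 2 and 3) and 3 of the wild-type genotype (libraries 4, 5 and 6). Both genotypes had been moved from 10% to 0.5% serum for 48 h, which the labels call differentiation medium, and no other agent is named for either of them. Where 3 values follow each other they stand in library order, 4, 5, 6 for the wild type and 1, 2, 3 for the knock-out. The labels do not say how the knock-out was made, nor whether the libraries of a genotype came from separate animals, clones or cultures, so a p-value here measures the spread between these libraries, which may be technical. The series title sets the genotypes in the context of CD73, the Nt5e product that makes adenosine from AMP, and of elastin induced by TGF-beta 2.

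An elastic fibre is a core of cross-linked elastin laid on a scaffold of fibrillin microfibrils. Tropoelastin, the soluble monomer, is carried to the microfibril and presented to lysyl oxidases with the help of fibulin-4 and fibulin-5, and emilins sit at the interface between core and scaffold. In arteries, smooth muscle cells make most of this material during development, and its loss weakens the wall.

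Of the 10 genes, 9 had enough reads to be tested, and 7 of these differed between the genotypes. Eln, Fbln5, Efemp1, Efemp2 and Emilin1 were higher in the knock-out, while Fbln1 and Emilin2 were lower. The differences ran from a 1.30-fold rise of Efemp2 to an 18.9-fold fall of Fbln1. Fbn1 and Fbln2 did not pass the test, and Fbn2 was nearly absent. A call means an adjusted p under 0.05 in edgeR's quasi-likelihood test, adjusted over all genes tested, and 27.8% of the 12660 tested genes met it. Calls in the upward direction covered 14.1% of tested genes against 5 of the 9 tested here, and calls in the downward direction 13.7% against 2 of the 9. The median log2 fold change of the 9 was 0.62, beside 0.02 over all tested genes. All knock-out values lay above all wild-type values for 6 of the 9 genes and below them for 2, beside 24.3% and 25.5% of all tested genes.

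Reads mapped to exons numbered 19919095 to 23669252 per library. For Nt5e itself, 615, 688 and 486 exon reads were counted among wild-type libraries against 22, 1 and 2 for the knock-out, so the genotype labels held, with the highest remainder in library 1. Knock-out library 1 stood apart: its biological coefficient of variation was 44.6% and 45.1% against knock-out libraries 2 and 3 and 43.7% to 48.0% against the wild-type libraries. Libraries 2 and 3 differed from each other by only 3.66%, and wild-type libraries 4 and 6 by 3.49%. Wild-type library 5 also stood apart, though less, at 14.97% against library 4 and 15.73% against library 6. The last number in the library title was 1 for libraries 1 and 5 and 2 for libraries 2, 3, 4 and 6. The split thus followed a label found in both genotypes, whose meaning is not given. Whether what it labels caused the split was not tested. Values are therefore given for every library, and results also without library 1 and with both near-identical pairs summed. Without library 1, 66.2% of 12817 tested genes passed, all of the 9 genes among them. With the pairs summed, which leaves 2 samples per genotype, 0.13% of 13041 genes passed in edgeR, and 0 of the 9, although 7 of the 9 had an unadjusted p under 0.05, beside 2640 of all 13041 genes.

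The labelled cell type was compared with marker genes. Smooth muscle markers were uneven. Acta2 stood at 51.9 to 101 CPM (read counts scaled to library size by TMM) in wild-type cells and at 73.8, 546 and 525 CPM in knock-out ones. Myh11 had 1 to 3 reads per wild-type library and 5, 54 and 67 reads in the knock-out. Des and Myocd had at most 4 reads in any library. The summed level of 10 smooth muscle markers ran from 178 to 229 CPM among wild-type libraries, a range that held knock-out library 1, and reached 733 and 711 CPM in libraries 2 and 3. Most of that was Acta2, which was not called, and the other 9 markers summed to 109 to 131 CPM against 126, 187 and 186 CPM. Of the 7 tested, Smtn was called higher and Cnn1, at 1.32 to 3.20 CPM in the wild type and 0.236 to 0.606 CPM in the knock-out, lower. Markers of mesothelium, the epithelial lining of the body cavities, were mostly lower in the knock-out. Of the 9 tested, 8 were called lower, beside 13.7% of all tested genes. The summed level of the 10 mesothelial markers was 3474 to 3711 CPM among wild-type libraries. It was 948, 284 and 290 CPM for the knock-out, where Krt8 and Krt18 had 0 reads. Gpm6a, the tested marker that was not called, supplied 583 CPM in knock-out library 1, above its 223 to 279 CPM in the wild type, and without it the knock-out sums were 365, 238 and 244 CPM against 3251 to 3432 CPM. Of the 9 fibroblast markers, 2 were called higher, Pdgfra and Pi16, and 0 lower, beside 14.1% and 13.7% of all tested genes. Their sum was 5012 to 5247 CPM among wild-type libraries and 5434, 9576 and 10371 CPM for the knock-out. Most of that rise was Col1a1 and Col1a2, which were not called. Col1a1 stood at 775 to 1027 CPM against 747, 2090 and 2333 CPM, and Col1a2 at 1320 to 1484 CPM against 1336, 3951 and 4439 CPM. Dcn, also not called, stood at 2311 to 2647 CPM against 2948, 2462 and 2502 CPM. Endothelial and leukocyte markers summed to at most 6.79 and 16.8 CPM in any library, with Ptprc, Adgre1, Itgam, Tie1 and Cldn5 at 0 reads in all 6. The part of these shifts in the gene differences below was not tested, and in bulk RNA a change in the number of cells of one kind cannot be told apart from a change in RNA per cell.

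**Figure D1:**
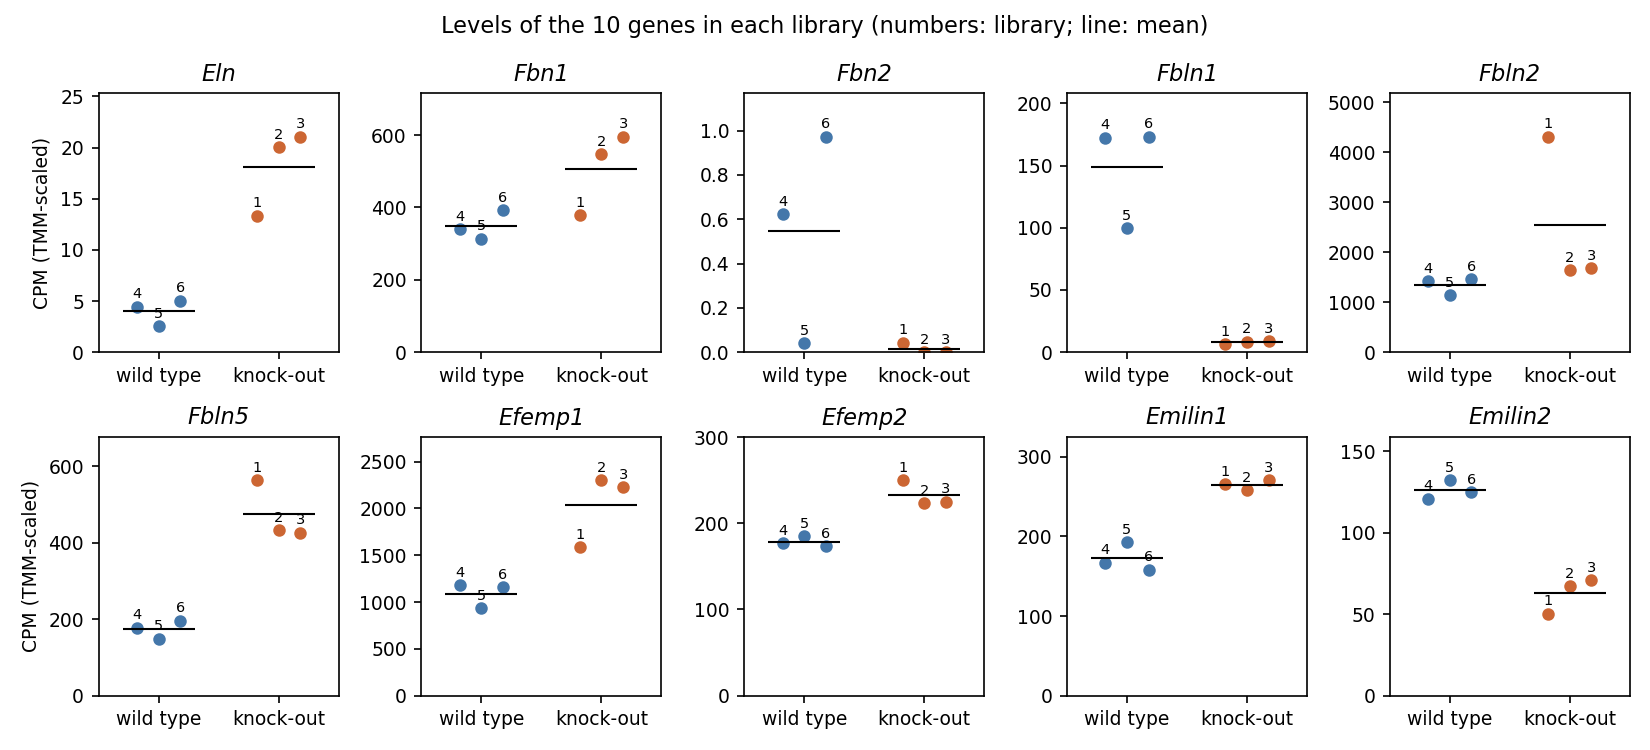
Level of each of the 10 genes (vertical axis, CPM scaled by TMM, a separate scale per gene) in wild-type libraries 4 to 6 (blue) and knock-out libraries 1 to 3 (orange), with the library number at each point and the group mean as a line. Groups lie apart for every gene except Fbn1, where knock-out library 1 falls among the wild-type values, and Fbn2, which is at or under 1 CPM throughout.

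Elastin, the core protein, was a minor transcript that rose in the knock-out. Eln (ENSMUSG00000029675, chromosome 5, 134702593 to 134747323, minus strand, GRCm38) drew 100, 62 and 109 exon reads from wild-type cells and 308, 425 and 396 from knock-out cells. Scaled by TMM this made 4.02 ± 1.31 CPM for wild-type and 18.1 ± 4.20 CPM for knock-out libraries (SD, n = 3 each), or 4.46, 2.55 and 5.05 against 13.3, 20.0 and 21.1 CPM by library. Every knock-out library lay above every wild-type library, library 1 lowest among them at 3.32 times the wild-type mean and libraries 2 and 3 at 4.98 and 5.24 times. The rise measured 2.17 ± 0.32 on the log2 scale (SE, edgeR adjusted p = 0.00704), and the call held with any 1 library left out (highest adjusted p = 0.0411). It was lost with the pairs summed, at an unchanged size (2.21, edgeR adjusted p = 0.134).

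Reads that cross exon junctions of Eln, and so come from spliced RNA, rose as well. They numbered 69, 28 and 58 for the wild type and 200, 245 and 211 for the knock-out (log2 fold change 2.21 ± 0.35, edgeR adjusted p = 0.00842). Reads in Eln introns were few, with 12, 6 and 12 in the wild type and 14, 19 and 18 in the knock-out, and differed less. Scaled by depth, the 51 knock-out intron reads were 1.84 times the 30 wild-type reads, with an exact 95% interval of 1.15 to 2.99 that covers counting error only, and the edgeR test on intron reads did not call the gene (0.75 ± 0.37, adjusted p = 0.240). For every 100 exon reads, Eln had 9.68 to 12 intron reads among wild-type libraries against 4.55, 4.47 and 4.55 for the knock-out. The share thus lay lower in all 3 knock-out libraries. This held for 1 of the 9 genes with at least 30 intron reads, and for 7.85% of 10945 genes counted the same way, while 0 of the 9 had it higher in all knock-out libraries, beside 10.6% of those genes.

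The fibrillins, large cysteine-rich proteins that polymerise into microfibrils, were represented by Fbn1 alone. Fbn1 (ENSMUSG00000027204, chromosome 2, 125300594 to 125507993, minus strand, GRCm38) stood at 339, 314 and 393 CPM for the wild type and at 379, 548 and 596 CPM for the knock-out. Knock-out library 1 lay inside the wild-type range and libraries 2 and 3 above it, and the difference did not pass (0.54 ± 0.19, edgeR adjusted p = 0.0837). It passed without knock-out library 1 (0.71, edgeR adjusted p = 8.59e-04), in DESeq2 (0.54, adjusted p = 0.0288) and with the last number of the library title as a covariate (0.52, edgeR adjusted p = 0.0261). Intron reads of Fbn1 were not called, at 190 ± 44.4 per wild-type library and 193 ± 6.03 per knock-out library (0.035 ± 0.19, edgeR adjusted p = 0.934).

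Fbn2 (ENSMUSG00000024598, chromosome 18, 58008623 to 58210487, minus strand, GRCm38), the fibrillin best known from development, drew 14, 1 and 21 exon reads from wild-type cells and 1, 0 and 0 from knock-out cells. Its few reads thus came almost wholly from the near-identical libraries 4 and 6, while wild-type library 5 matched knock-out library 1. The 36 wild-type reads against 1 give a ratio of 33.2 with an exact 95% counting interval of 5.60 to 1349. The gene fell below the count filter. It was tested where the filter let it in and did not pass without any filter (edgeR adjusted p = 0.0696) or without knock-out library 1, 2 or 3 (edgeR adjusted p = 0.0555, 0.172 and 0.166). It passed as lower without wild-type library 5 (-5.23, edgeR adjusted p = 0.0354) and with libraries of one title stem summed (-4.85, edgeR adjusted p = 0.0227). The stems join libraries 1 and 2, and libraries 5 and 6. In neither passing setting did library 5 stand as a sample of its own.

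Among the fibulins, Fbln1 and Fbln5 moved in opposite directions. Fbln1 (ENSMUSG00000006369, chromosome 15, 85205949 to 85286535, plus strand, GRCm38) encodes a fibulin of basement membranes and elastic fibres that binds fibronectin. Its exon reads numbered 3868, 2426 and 3742 for the wild type against 147, 181 and 164 for the knock-out. Mean levels were 149 ± 42.2 CPM without and 7.87 ± 1.31 CPM with the knock-out (SD, n = 3 each), and the 3 knock-out libraries were alike, at 0.0428 to 0.0587 times the wild-type mean. The log2 fold change was -4.24 ± 0.28 (edgeR adjusted p = 8.02e-04), with a range of -4.46 to -4.11 and a highest adjusted p of 0.00861 when 1 library was left out. With the pairs summed it was -4.18 (edgeR adjusted p = 0.0620).

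Intron reads of Fbln1 fell too, from 97, 68 and 93 for the wild type to 2, 5 and 3 for the knock-out (-4.65 ± 0.33, edgeR adjusted p = 1.37e-04). Called differences in intron reads were found for 12% of 10653 tested genes and for 3 of the 9 genes here, Fbln1 and Emilin2 lower and Fbln5 higher. Mesothelial markers moved in the same direction as Fbln1. The part of one in the other was not tested.

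Fbln5 (ENSMUSG00000021186, chromosome 12, 101746565 to 101819055, minus strand, GRCm38), which tethers tropoelastin to microfibrils and cells, rose. It stood at 177, 149 and 196 CPM for the wild type and at 563, 433 and 426 CPM for the knock-out. All knock-out values were above the wild type, library 1 highest. The log2 fold change was 1.44 ± 0.16 (edgeR adjusted p = 0.00341), the call held with any 1 library left out (highest adjusted p = 0.0289), and with the pairs summed it was 1.57 (edgeR adjusted p = 0.0945). Its intron reads rose too, from 101, 76 and 90 for the wild type to 295, 167 and 147 for the knock-out (1.22 ± 0.32, edgeR adjusted p = 0.0398).

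The upstream sequences of these 2 fibulins and of Efemp1 are shown because these genes hold the largest fall and the most abundant and the largest rises among the fibulins. Each run is the 250 bases before a RefSeq start site on GRCm38.p6, the outermost of 2 for Fbln1 and for Fbln5, written 5′ to 3′ on the gene's strand, and capitals mark matches, on either strand, to the cAMP-response half-site TGACG, the SMAD box CAGAC, the AP-1 site TGANTCA or TATAAA.
Fbln1, chr15:85205699-85205948, plus strand: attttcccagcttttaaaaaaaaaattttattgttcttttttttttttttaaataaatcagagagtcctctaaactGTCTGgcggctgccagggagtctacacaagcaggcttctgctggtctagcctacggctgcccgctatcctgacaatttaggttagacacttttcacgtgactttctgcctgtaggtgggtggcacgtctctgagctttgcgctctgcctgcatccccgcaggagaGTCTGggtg
Fbln5, chr12:101819120-101819369, minus strand: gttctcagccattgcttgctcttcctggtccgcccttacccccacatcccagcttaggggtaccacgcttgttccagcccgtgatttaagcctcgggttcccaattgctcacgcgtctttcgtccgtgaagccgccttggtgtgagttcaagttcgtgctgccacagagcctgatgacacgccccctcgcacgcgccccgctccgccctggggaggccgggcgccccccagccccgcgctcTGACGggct
Efemp1, chr11:28852955-28853204, plus strand: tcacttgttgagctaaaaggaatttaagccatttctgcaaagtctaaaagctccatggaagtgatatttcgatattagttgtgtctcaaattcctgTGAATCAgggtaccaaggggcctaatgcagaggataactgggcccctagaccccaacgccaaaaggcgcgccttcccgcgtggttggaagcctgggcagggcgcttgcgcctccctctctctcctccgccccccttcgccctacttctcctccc
The Fbln1 window held 2 SMAD boxes, the Fbln5 window 1 cAMP half-site and the Efemp1 window 1 AP-1 site. Among 32851 windows of the same length upstream of RefSeq starts, 42.2% held a SMAD box, 17.8% the half-site, 6.75% an AP-1 site, 12.4% TATAAA and 1.55% the full palindrome TGACGTCA, which contains the half-site on both strands and was in none of the 3. The window of the other Fbln1 start overlaps the one shown and holds the same 2 boxes, and that of the other Fbln5 start held 2 boxes and 1 half-site. A match is a string of letters and not a measured site.

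Fbln2, a fibulin of vessel walls and basement membranes, stood far above the other libraries in knock-out library 1. Fbln2 (ENSMUSG00000064080, chromosome 6, 91212455 to 91272540, plus strand, GRCm38) stood at 1417, 1139 and 1457 CPM for the wild type and at 4311, 1645 and 1681 CPM for the knock-out. Knock-out library 1 was at 3.22 times the wild-type mean, and libraries 2 and 3 at 1.23 and 1.26 times, just above the highest wild-type value. Over all 6 libraries the difference did not pass (0.93 ± 0.41, edgeR adjusted p = 0.142). Without it, the log2 fold change was 0.31 (edgeR adjusted p = 0.0368). Reads in Fbln2 introns were also most frequent in knock-out library 1, with 1366 against 896 and 799 in libraries 2 and 3 and 495 to 653 in the wild type (0.85 ± 0.26, edgeR adjusted p = 0.0757).

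Efemp1 and Efemp2 are close relatives. Efemp2, fibulin-4, is needed for lysyl oxidase to cross-link elastin, and Efemp1, fibulin-3, is a matrix glycoprotein of fascia and retina. Efemp1 (ENSMUSG00000020467, chromosome 11, 28853204 to 28926743, plus strand, GRCm38) stood at 1179, 935 and 1160 CPM for the wild type and at 1583, 2303 and 2224 CPM for the knock-out. It rose (0.90 ± 0.18, edgeR adjusted p = 0.0177), with library 1 between the wild type and libraries 2 and 3. The call rested on the full set of libraries: leaving out any library other than knock-out library 1 raised the edgeR adjusted p to between 0.0640 and 0.0687 at log2 fold changes of 0.80 to 0.96, and with the pairs summed it was 0.212 (0.87). Intron reads of Efemp1 did not pass, with 631, 623 and 735 against 679, 1337 and 1253 (0.69 ± 0.21, edgeR adjusted p = 0.0734).

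Efemp2 (ENSMUSG00000024909, chromosome 19, 5473954 to 5482517, plus strand, GRCm38) showed the smallest called difference, from 177, 185 and 174 CPM for the wild type to 250.1, 223 and 225 CPM for the knock-out (0.38 ± 0.08, edgeR adjusted p = 0.0182). The genotypes did not overlap, yet the call ended when any library other than knock-out library 1 was left out (edgeR adjusted p 0.0541 to 0.0918), when libraries were scaled by total counts alone (0.29, edgeR adjusted p = 0.0733) and with the pairs summed (0.40, edgeR adjusted p = 0.233). Its intron reads were not called, at 65, 92 and 73 for the wild type and 69, 74 and 82 for the knock-out (-0.026 ± 0.18, edgeR adjusted p = 0.947). Efemp2 was the one gene of the 10 whose annotated span overlaps another gene of the deposited table. That gene, Mus81 on the opposite strand, shares 173 bases with it and had 294 to 486 reads per library. Overlaps with genes outside the deposited table were not searched.

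The 2 emilins, glycoproteins of the elastin surface that share a C1q-like head, moved apart. Emilin1 (ENSMUSG00000029163, chromosome 5, 30913402 to 30921277, plus strand, GRCm38), known as an inhibitor of TGF-beta precursor processing, stood at 167, 192 and 158 CPM for the wild type and at 266, 258 and 271 CPM for the knock-out. Its knock-out values had the smallest spread, relative to their mean, of the 9 tested genes, and library 1 did not stand apart. It rose by 0.62 ± 0.09 on the log2 scale (edgeR adjusted p = 0.00781). The call ended without wild-type library 4 (0.59, edgeR adjusted p = 0.0522) and with the pairs summed (0.58, edgeR adjusted p = 0.172). Intron reads of Emilin1 numbered 39, 48 and 41 against 66, 66 and 63, and did not pass (0.61 ± 0.18, edgeR adjusted p = 0.0592).

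Emilin2 (ENSMUSG00000024053, chromosome 17, 71252172 to 71311978, minus strand, GRCm38) stood at 121, 132 and 125 CPM for the wild type and at 50.3, 67.1 and 71.1 CPM for the knock-out. Every knock-out library was below every wild-type library, library 1 lowest. It was 2.01-fold lower (SE 0.14 on the log2 scale, edgeR adjusted p = 0.00646), and it kept its call with any 1 library left out (highest adjusted p = 0.0361) but not with the pairs summed (-1.09, edgeR adjusted p = 0.126). Intron reads of Emilin2 fell likewise, from 40, 53 and 47 for the wild type to 14, 23 and 18 for the knock-out (-1.35 ± 0.24, edgeR adjusted p = 0.00885).

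**Figure D2:**
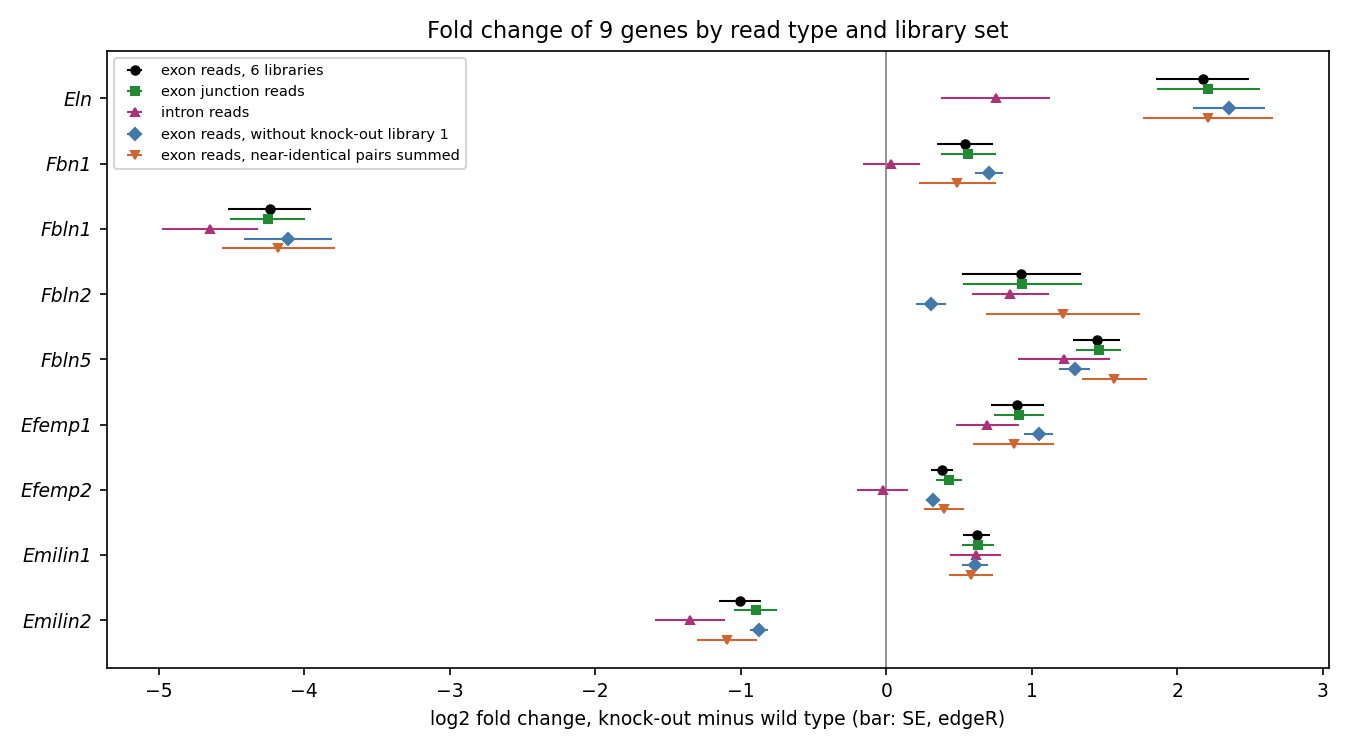
Log2 fold change of the 9 tested genes, knock-out minus wild type (horizontal axis, bars are the SE from edgeR), from exon reads, exon junction reads and intron reads of all libraries and from exon reads without knock-out library 1 or with the near-identical pairs summed. Junction reads lie beside exon reads for every gene, whereas intron reads of Eln, Fbn1 and Efemp2 lie nearer 0, at 0.75, 0.035 and -0.026.

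To compare levels between genes, the deposited RPKM (reads scaled by exon length and by library total) were used. In the wild type, Efemp1 was highest at 512 ± 66.8 RPKM and Fbln2 next at 249 ± 33.8 RPKM, and the ranges of the 3 libraries did not meet. Efemp2 followed at 51.2 ± 1.31 RPKM, then Emilin1 at 42.7 ± 4.11, Fbln1 at 34.6 ± 10.0, Fbn1 at 27.7 ± 3.36, Fbln5 at 27.4 ± 3.89 and Emilin2 at 27.1 ± 1.07 RPKM. The ranges of Fbln1, Fbn1, Fbln5 and Emilin2 overlapped each other, so the order of these 4 was not resolved, and Emilin1 overlapped Fbln1 but lay above the other 3. Eln, at 0.996 ± 0.329 RPKM, and Fbn2, at 0.0474 ± 0.0409 RPKM, stood far below. Efemp1 ranked between places 82 and 111 among the 25683 genes in the wild-type libraries, and Eln between places 10639 and 11347.

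In the knock-out the order changed in its middle and lower part. Efemp1 (897 ± 137 RPKM) and Fbln2 (457 ± 298 RPKM) still led, but their ranges met, because Fbln2 at 800.3 RPKM exceeded Efemp1 at 740.1 RPKM in library 1 and stood at 282 and 288 RPKM in libraries 2 and 3. Fbln5, at 70.9 ± 15.2 RPKM, moved by its mean from place 7, unresolved in the wild type, to place 3. Its range overlapped that of Efemp2, at 63.2 ± 7.16 RPKM, and that of Emilin1, so the order among them was not resolved. Emilin1 was at 62.1 ± 3.43, Fbn1 at 37.9 ± 7.03 and Emilin2 at 12.7 ± 1.71 RPKM. Eln, at 4.22 ± 0.810 RPKM, stood above Fbln1, at 1.72 ± 0.215 RPKM, without overlap. By its mean, Fbln1 went from place 5, unresolved in the wild type, to place 9, and only Fbn2 stood lower. The RPKM of the 10 genes summed to 1034, 844 and 1039 for the wild type and to 1812, 1514 and 1494 for the knock-out, and Efemp1 with Fbln2 made up most of it in every library.

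**Figure D3:**
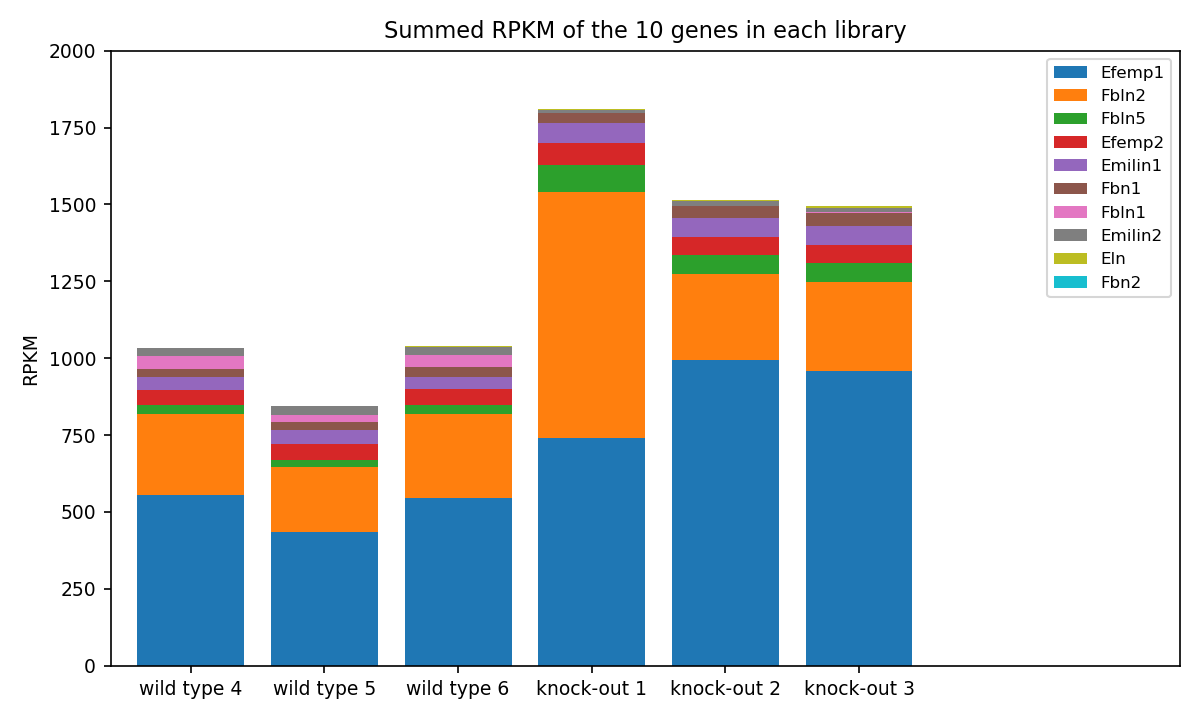
RPKM of the 10 genes stacked for each library (vertical axis, RPKM as deposited). Efemp1 and Fbln2 fill most of each bar, Fbln1 shows as a band in the wild-type bars and hardly in the knock-out bars, and the tallest bar is knock-out library 1, whose Fbln2 share is 44.2% against 18.6% and 19.3% in libraries 2 and 3.

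Ratios of RPKM within a library do not depend on how libraries are scaled. The ratio of Fbln5 to Fbln1 was 0.695, 1.01 and 0.765 for the wild type and 59.9, 34.3 and 33.0 for the knock-out, so the pair went from near parity to a large excess of Fbln5 RNA. Emilin1 to Emilin2 went from 1.46 to 1.68 in the wild type to 6.10, 4.44 and 4.39 for the knock-out. Fbn1 to Eln, microfibril RNA over core RNA, was 24.5, 39.5 and 25.0 for the wild type and 9.13, 8.79 and 9.09 for the knock-out. The last of these was nearly the same in all knock-out libraries, although both genes were lower in library 1 than in libraries 2 and 3. Among the ratios shown here, the others overlapped between genotypes. Efemp1 to Efemp2 was 8.26 to 10.9 in the wild type and 10.4, 16.9 and 16.2 for the knock-out, and Fbln2 to Fbln5 was 8.79 to 9.45 in the wild type, 9.05 in knock-out library 1 and 4.49 and 4.66 in libraries 2 and 3. The choice of these ratios followed the values seen, and they are given as a description.

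**Figure D4:**
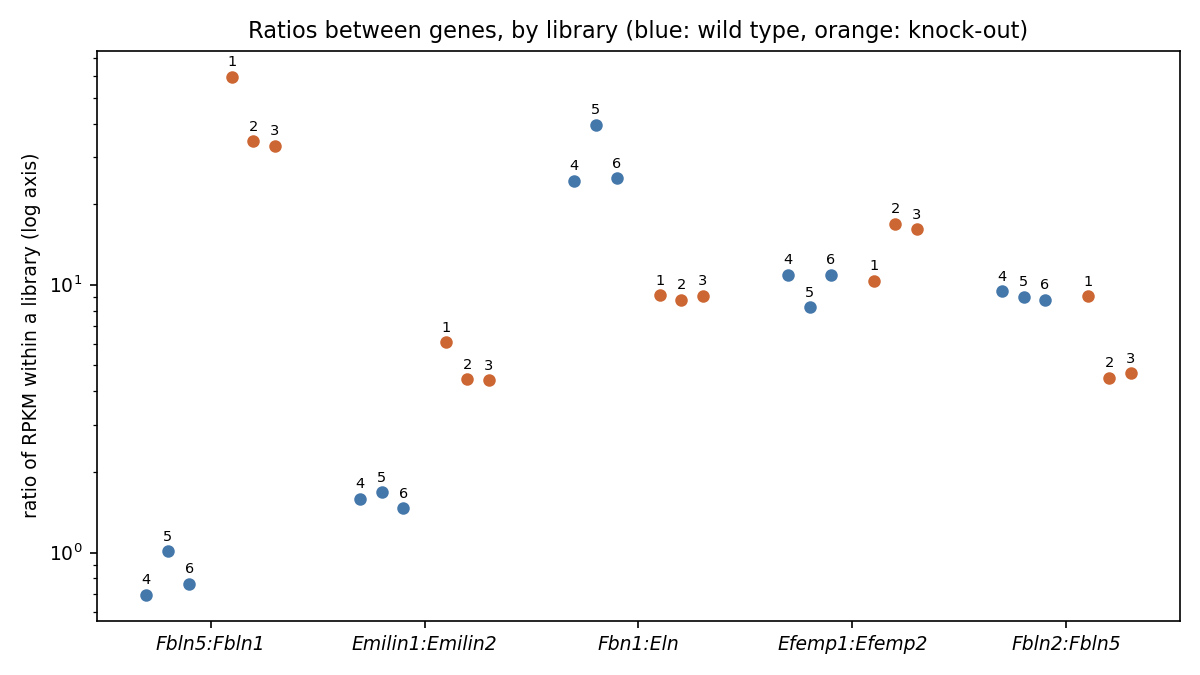
Ratio of RPKM between 2 genes within each library (vertical log axis), wild-type libraries 4 to 6 in blue and knock-out libraries 1 to 3 in orange. The ratios Fbln5:Fbln1, Emilin1:Emilin2 and Fbn1:Eln part the genotypes, and in Fbln2:Fbln5 knock-out library 1, at 9.05, lies among the wild-type libraries.

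Within the 10 genes the libraries of the knock-out fell into distinct patterns. Eln, Fbn1 and Efemp1 were lower in library 1 than in libraries 2 and 3, Fbln2, Fbln5 and Efemp2 were higher there, and Emilin1 was level. Fbln1 and Emilin2, both called lower, were lowest in library 1. Across the 6 libraries, the Pearson correlation of log2 CPM was 0.98 for Eln with Efemp1 and 0.93 for Eln with Fbln5, and -0.99 for Fbln5 with Emilin2. These 6 points share the genotype contrast and the near-identical libraries, so the values only describe it. Among 11366 other genes with a mean of at least 50 reads, those closest to Eln were Pcdhga10 (r = 0.999), Trabd2b (0.999) and Adamts10 (0.999), and 706 genes exceeded 0.95. For Fbln1 they were Akirin1 (0.999), Slc17a9 (0.999) and Mex3a (0.998), and 556 genes exceeded 0.95.

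The other genes of elastic fibre assembly, turnover and attachment were counted from lists of 47 symbols, 46 of them in the table and 35 tested. Of the 35, 9 rose and 1 fell, beside 14.1% and 13.7% of all tested genes, with a median log2 fold change of 0.31. Groups lay apart for 14 as higher and for 8 as lower, beside 24.3% and 25.5% of all tested genes. Without knock-out library 1, 18 rose and 11 fell, beside calls for 66.2% of all genes, and with the pairs summed 0 passed in edgeR, where 9 of 35 had an unadjusted p under 0.05, beside 2640 of all 13041 genes.

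Of the 6 cross-linking genes 2 rose and 0 fell, beside 14.1% and 13.7% of all tested genes. Loxl4, a lysyl oxidase-like enzyme, stood at 8.43, 10.8 and 7.50 CPM for the wild type and at 32.9, 29.8 and 28.1 CPM for the knock-out (1.76 ± 0.16, edgeR adjusted p = 0.00198), and kept its call with any 1 library left out. Loxl2 stood at 44.1 to 56.2 CPM among wild-type libraries and at 67.2, 346 and 358 CPM for the knock-out (2.40 ± 0.62, edgeR adjusted p = 0.0358), so most of its rise lay in libraries 2 and 3, and its call ended when any library but knock-out library 1 was left out (highest edgeR adjusted p = 0.130). Lox and Loxl1, the oxidases classically tied to elastin, did not pass. Lox stood at 546 to 759 CPM among wild-type libraries and 655, 1079 and 1160 CPM for the knock-out (0.56 ± 0.25, edgeR adjusted p = 0.142). Loxl1 stood at 36.1 to 52.3 CPM among wild-type libraries and at 77.2, 10.8 and 11.97 CPM for the knock-out (-0.47 ± 0.79, edgeR adjusted p = 0.678), above the wild type in library 1 and below it in libraries 2 and 3.

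Of 11 tested genes of microfibrils and their associated proteins, 4 rose and 1 fell, beside 14.1% and 13.7% of all tested genes. Groups lay apart for 6 of the 11 as higher and for 3 as lower, beside 24.3% and 25.5% of all tested genes. Ltbp4, a latent TGF-beta binding protein needed for elastic fibre assembly with fibulin-5, stood at 225 to 339 CPM among wild-type libraries and at 754, 511 and 521 CPM for the knock-out (1.06 ± 0.22, edgeR adjusted p = 0.0190), a call that ended without wild-type library 4 or 5 (highest adjusted p = 0.0801). Adamtsl4, a fibrillin-binding protein, rose (0.80 ± 0.10, edgeR adjusted p = 0.00487), as did the metalloproteinase Adamts10 (0.71 ± 0.12, edgeR adjusted p = 0.0104), whose call ended without wild-type library 4 (0.0525), and fibronectin, Fn1 (0.63 ± 0.18, edgeR adjusted p = 0.0468), whose call ended when any library other than knock-out library 1 was left out (highest 0.135). Thsd4, also known as Adamtsl6, fell from 1.32 to 3.20 CPM in the wild type to at most 0.283 CPM (-3.08 ± 0.49, edgeR adjusted p = 0.00873).

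Of the other fibulin and emilin relatives, 1 of 3 tested passed, beside 27.8% of all tested genes. Hmcn2, a hemicentin, rose from 0.134 to 0.371 CPM in the wild type to 1.17, 1.79 and 2.13 CPM for the knock-out (2.82 ± 0.48, edgeR adjusted p = 0.0110), a call that ended without wild-type library 4 or 5 (highest 0.0562). Its relative Hmcn1 stood at 573 to 639 CPM among wild-type libraries and at 1.99, 145 and 138 CPM for the knock-out, below the wild type in each, and did not pass (-2.66 ± 1.23, edgeR adjusted p = 0.157). Emilin3 had 0 reads in every library.

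Of the elastin receptor and elastase genes, 1 of 8 tested rose, and of the matrix-binding integrins 1 of 7, shares near the 14.1% of all tested genes called higher. Mmp2, a gelatinase that also cleaves elastin, stood at 82.6, 27.2 and 99.0 CPM for the wild type and at 314, 449 and 475 CPM for the knock-out (2.57 ± 0.49, edgeR adjusted p = 0.0154), a call lost on leaving out knock-out library 2, knock-out library 3 or wild-type library 4 (highest 0.0656). Wild-type library 5, lowest in Mmp2, was also the lowest wild-type library in Eln, Fbn1, Fbln1, Fbln2, Fbln5 and Efemp1, and the highest in Efemp2, Emilin1 and Emilin2. Itgb1, the beta-1 integrin chain of fibronectin receptors, rose from 716, 785 and 748 CPM for the wild type to 1156, 1236 and 1204 CPM for the knock-out (0.68 ± 0.08, edgeR adjusted p = 0.00430), and kept its call with any 1 library left out. The neutrophil elastase gene Elane and Vtn, vitronectin, had 0 reads in every library.

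**Figure D5:**
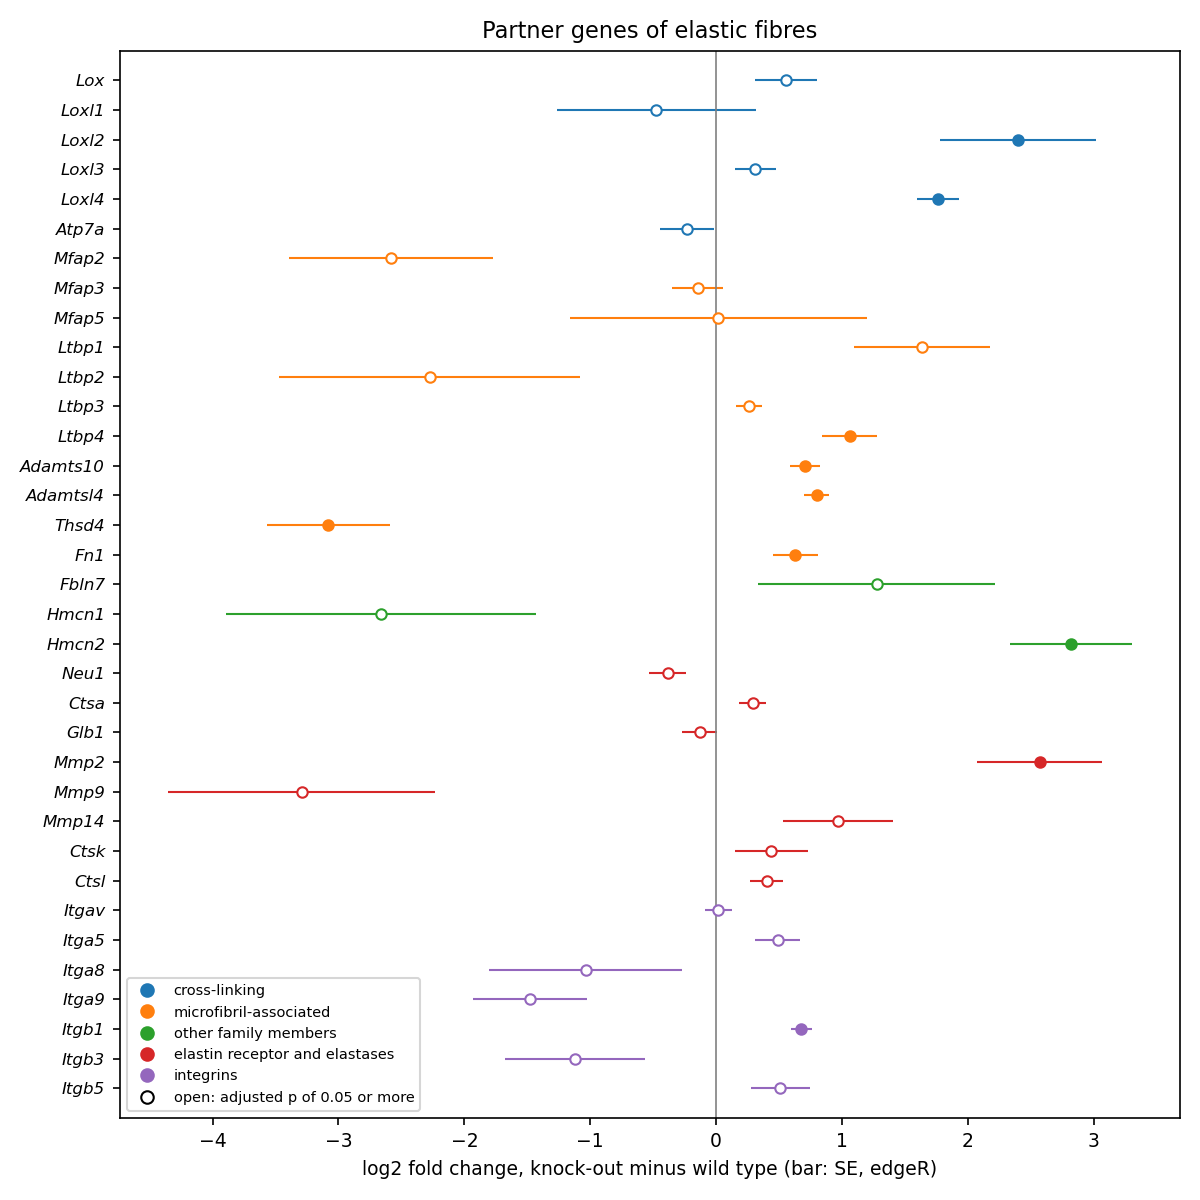
Log2 fold change, knock-out minus wild type (horizontal axis, bars are the SE from edgeR), of the 35 tested partner genes, coloured by list, with open symbols for genes that did not pass. Filled symbols lie to the right for 9 genes and to the left for Thsd4 alone.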

How the data were processed

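The deposited table gives whole-number read counts per gene and library, made by the authors (exon, unique exon, exon junction, intron and all gene reads), and their RPKM values, per the file headers. Expression values equal total exon reads in every entry. The submitters' processing notes name GRCm38 (mm10) as the build. Aligner, counter and strand setting remain not given in the sources used here. Coordinates of the 10 genes are the same in GENCODE M21.

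Exon read counts were tested with edgeR 4.0.16 (R 4.3.3): filterByExpr with a minimum count of 10, TMM scaling, quasi-likelihood F test of genotype with no covariate, p-values adjusted by Benjamini-Hochberg over all tested genes at 0.05. The SE is the log2 fold change divided by the square root of F. RPKM were not tested. Intervals on reads are exact and cover counting error only. The script was tested on simulated counts of independent libraries with the same dispersion for all genes. That setting has no near-identical pairs and no outlying library, so it does not cover these features of the data. Upstream sequences came from RefSeq (GRCm38.p6), where entries of 8 of the 10 genes were used (not Eln and Fbn2). Plots used matplotlib 3.10.9.

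The 10 genes and all lists were chosen with earlier results of these data known. Named genes are the 10, Nt5e and, per list, up to 3 called rises and 3 called falls without overlap by smallest p, with the 3 genes most like Eln and Fbln1. Lox, Loxl1, Fn1, Hmcn1, Emilin3, Elane, Vtn, Mus81 and the marker genes named were added after their values were seen. As alternatives, scaling was by DESeq2 size factors or by total counts, and the fit was repeated with no filter, 50 reads in 3 libraries, DESeq2 1.42.0, limma-voom (limma 3.58.1), unique exon reads, libraries of one title stem summed, near-identical pairs summed, the last title number as covariate and leaving out each library. Junction reads, intron reads and the title number after p as covariate were added after seeing the data.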

Additional observations from a re-analysis of the deposited data

How the results depend on the processing

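The count of genes called, 3524 over all tested genes, was 17 with the near-identical pairs summed, 1280 from intron reads and between 1120 and 8486 when 1 library was left out, lowest without wild-type library 4 and highest without knock-out library 1. Of the 10 genes, 5 were called higher and 2 lower. With the pairs summed edgeR called 0 and 0, and from intron reads 1 was called higher. With 1 library left out, 2 to 7 were called higher and 2 to 3 lower. Partner genes, called 9 higher and 1 lower, were 0 and 0 with the pairs summed and ranged from 3 to 18 higher and 1 to 11 lower with 1 library left out. The lower count was 2 with total counts, 0 with the stricter filter, 4 in DESeq2, 3 in limma-voom, and 5 both with title stems summed and with the last title number as covariate. No log2 fold change of the 9 tested genes changed sign under any other alternative with exon or junction reads. The intron reads of Efemp2 gave -0.026. Total counts moved the median of all genes from 0.02 to -0.08. No paired analysis was possible because the sample numbers, 1 to 6, are not shared by the genotypes. Numbers inside the titles do recur in both, with no meaning given: as a covariate the last one gave 4510 genes and 6 of the 10 higher, Fbn1 added, and the one after p, tried after seeing the data, gave 3122 genes and 5 higher. The cause of these shifts was not tested. Summed pairs and summed title stems both leave 2 samples per genotype. With the stems summed, 3797 genes were called, with 5 of the 10 higher and 3 lower. Depth limits Fbn2, and Eln intron reads.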
